A study of Mus musculus with 74 samples.

Results

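The genes described here are 7 of the interleukin-1 (IL-1) family and of the inflammasome: the cytokine genes Il1a, Il1b and Il18, the receptor antagonist gene Il1rn, the sensor gene Nlrp3 and the caspase genes Casp1 and Casp4. They were chosen by symbol, with earlier results of these data known, and all 7 were found among the 24851 genes of the RNA tables. The RNA came from 18 libraries of mouse macrophage-like cells, 2 in each of 9 groups. These were line 264, line 3205 and RAW264.7, each at 0, 60 and 120 min of lipopolysaccharide (LPS), a bacterial cell wall component that activates macrophages. RAW264.7 is a macrophage-like line from a tumour ascites, and lines 264 and 3205 derive from it by editing of H3f3a and H3f3b, the pair of genes for the replacement histone H3.3. The series describes wild type, hypomorphic and H3f3a/H3f3b double knockout lines, but the labels do not say which number is which, whether a line is 1 clone, or which LPS dose the cell lines received. A further 12 ChIP libraries of unedited primary bone marrow derived macrophages, given LPS at 100 ng/mL, held 1 library per target at 0 and 60 min, and 3 of the 7 genes (Il1a, Il1b and Nlrp3) were among the 193 genes of that table.

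IL-1α and IL-1β are fever-inducing cytokines that signal through the same receptor, and the antagonist encoded by Il1rn binds that receptor without activating it. IL-1β and IL-18 are made as inactive precursors and are cut by caspase-1, which is switched on inside inflammasomes, protein complexes built on sensors such as NLRP3. In macrophages LPS is the classical first signal, which raises the RNA of the precursor and of the sensor, and a second signal assembles the complex. Caspase-11, the product of mouse Casp4, binds LPS inside the cell and opens a parallel route to pyroptotic death.

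Il1a and Il1b lie close together on chromosome 2 (129299609 to 129310186 and 129364569 to 129371164), and Il1rn lies on the same chromosome at 24336860 to 24351491. Casp1 (5298517 to 5307281) and Casp4 (5308849 to 5336791) are neighbours on chromosome 9, which also holds Il18 (50554700 to 50581841), and Nlrp3 is on chromosome 11 (59541569 to 59566955). All coordinates are of RefSeq on GRCm38.p6. The promoter sequences below, from 250 bases before to 50 after a RefSeq transcript start, are shown because these genes range from a very large change with LPS (Il1a, Il1b, Nlrp3) to none that passed the test (Casp1). Each is written 5′ to 3′ on the strand of its gene, and capitals mark matches to an NF-kB consensus, a TATA box (TATAAA), AP-1 (TGANTCA) or CRE (TGACGTCA) on either strand.
Il1a, chr2:129309923-129310222, minus strand: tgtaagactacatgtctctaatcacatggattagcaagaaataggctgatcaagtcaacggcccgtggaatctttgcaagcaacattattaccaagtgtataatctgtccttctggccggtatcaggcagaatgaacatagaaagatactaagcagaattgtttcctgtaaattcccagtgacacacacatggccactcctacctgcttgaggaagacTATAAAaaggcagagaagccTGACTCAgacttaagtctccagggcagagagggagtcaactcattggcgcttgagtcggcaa
Il1b, chr2:129371090-129371389, minus strand: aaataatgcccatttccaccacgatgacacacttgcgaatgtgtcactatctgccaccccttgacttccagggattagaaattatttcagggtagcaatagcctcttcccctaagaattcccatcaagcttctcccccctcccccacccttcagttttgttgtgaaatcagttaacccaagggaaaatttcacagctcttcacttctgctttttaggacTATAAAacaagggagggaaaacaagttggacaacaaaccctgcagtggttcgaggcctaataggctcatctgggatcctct
Il1rn, chr2:24336610-24336909, plus strand: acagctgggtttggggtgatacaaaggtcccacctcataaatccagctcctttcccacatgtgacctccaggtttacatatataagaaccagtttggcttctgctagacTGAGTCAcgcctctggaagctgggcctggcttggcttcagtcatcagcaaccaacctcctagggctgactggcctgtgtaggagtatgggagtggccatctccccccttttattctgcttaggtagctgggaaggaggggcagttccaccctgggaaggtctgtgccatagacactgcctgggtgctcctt
Nlrp3, chr11:59541319-59541618, plus strand: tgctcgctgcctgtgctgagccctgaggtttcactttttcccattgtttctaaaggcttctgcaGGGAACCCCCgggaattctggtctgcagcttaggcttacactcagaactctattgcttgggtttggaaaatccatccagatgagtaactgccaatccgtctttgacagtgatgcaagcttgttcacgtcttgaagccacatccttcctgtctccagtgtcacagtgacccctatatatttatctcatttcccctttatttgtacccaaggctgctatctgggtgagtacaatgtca
Casp1, chr9:5298267-5298566, plus strand: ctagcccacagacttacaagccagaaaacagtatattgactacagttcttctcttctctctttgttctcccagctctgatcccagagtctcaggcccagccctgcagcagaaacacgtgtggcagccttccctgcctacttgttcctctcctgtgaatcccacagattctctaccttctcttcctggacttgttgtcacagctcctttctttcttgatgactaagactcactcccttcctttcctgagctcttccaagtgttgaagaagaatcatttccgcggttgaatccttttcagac
Casp4, chr9:5308599-5308898, plus strand: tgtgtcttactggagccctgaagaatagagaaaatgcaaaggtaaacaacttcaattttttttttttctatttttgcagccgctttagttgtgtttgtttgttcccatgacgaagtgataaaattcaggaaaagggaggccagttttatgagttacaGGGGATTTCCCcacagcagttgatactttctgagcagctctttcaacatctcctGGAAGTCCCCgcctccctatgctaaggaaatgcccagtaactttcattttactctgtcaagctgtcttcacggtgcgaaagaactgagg

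In these windows Il1a and Il1b each held a TATA box, beginning 32 and 31 bases upstream of the start, and Il1a also held an AP-1 match 12 bases upstream. The Il1rn window held an AP-1 match 141 bases upstream. An NF-kB match stood 186 bases upstream in the Nlrp3 window, and the Casp4 window held 3, of which the pair at 93 and 92 bases overlap and the other began at 39 bases. No match to these 4 motifs, nor to PU.1 (AGAGGAAG), was found in the Casp1 window. Of 32544 RefSeq promoter windows of the same length, 13.6% held a TATA box, 8.49% an NF-kB match, 7.79% AP-1, 4.57% PU.1 and 1.8% CRE. The window of Il18, a gene that like Casp1 did not pass the test for LPS, is not shown and held a TATA box beginning 175 bases upstream. Il1rn, Nlrp3 and Casp4 have further RefSeq starts that are not shown, and from the other Casp4 start the same 3 matches began at 104, 103 and 50 bases. In the window of another Il1rn start a TATA box began 14 bases downstream of that start. The gene coordinates of Il1a and Il1b given above reach upstream of the starts used for their windows, so their positions hold for those starts. A match is a description of the letters, not of binding.

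The RNA values are reads divided by 1 size factor per library, called normalized reads here, and the libraries held 13.1 to 53.9 M reads. H3f3a stood at 172 to 236 normalized reads in the libraries of line 264 and 37.5 to 76.2 in those of line 3205, against 2055 to 3109 in RAW264.7. Reads of H3f3b remained in both edited lines, at 5642 to 17765 in line 264 and 7177 to 13284 in line 3205, against 13623 to 34155 in RAW264.7. Of 10 macrophage markers 9 were in the table, all with a mean of at least 1 and a summed level of 132123 to 479010 per library. The summed markers of B cells, T and NK cells, fibroblasts, neutrophils and mast cells reached at most 32.6. Those of dendritic cells summed to 29.9 to 350 per library. Of the 3 dendritic cell markers, 2 had a mean of at least 1 (Zbtb46 and Xcr1), while Flt3 averaged 0.559. Changes below are log2 fold changes of (normalized reads + 1) ± SE from limma, with 2 libraries per group and the spread shared over the 12 libraries of a table, and a gene rose or fell where the p adjusted over all genes was below 0.05. The labels do not say that replicates came from separate cultures, so p-values measure the spread between these libraries, which may be technical.

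**Figure D1:**
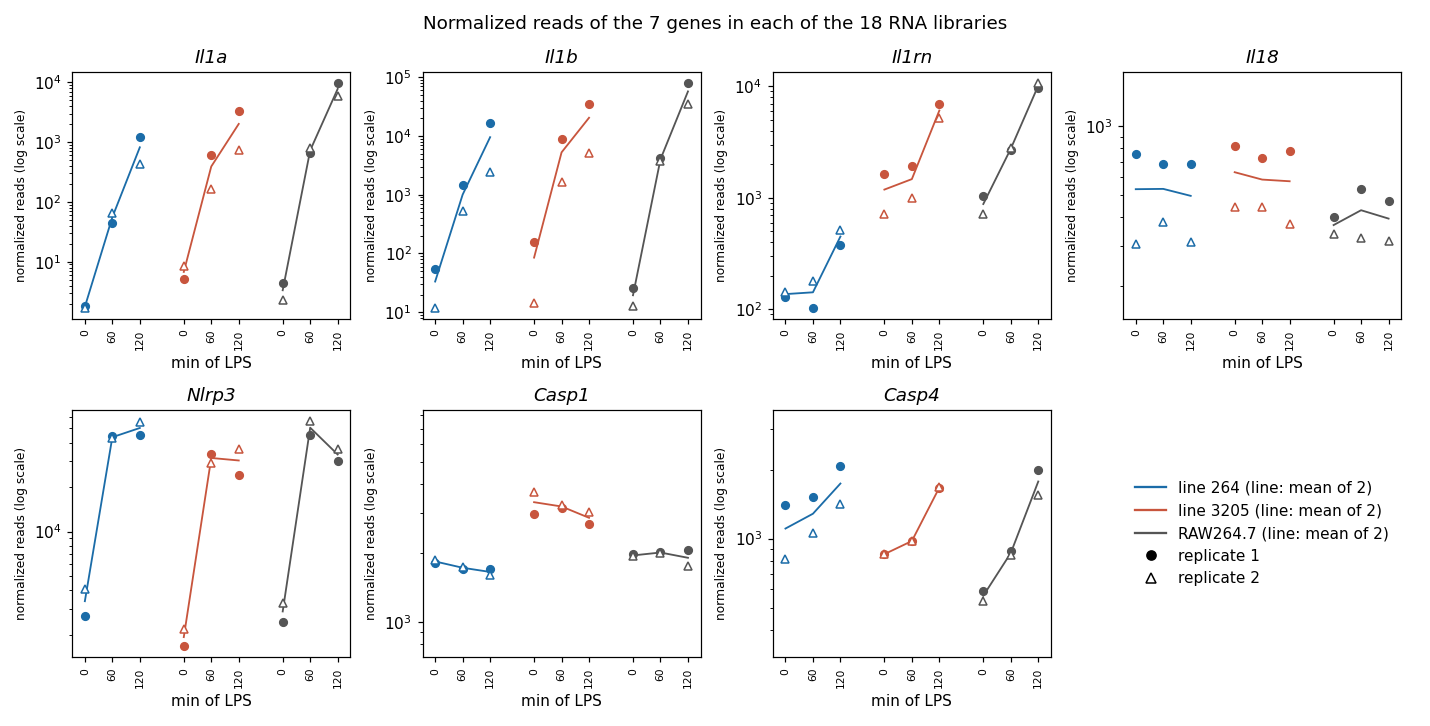
Normalized reads (log scale) of each gene in each of the 18 libraries, by line and min of LPS, with circles for replicate 1, open triangles for replicate 2 and lines through the means. Il1a, Il1b and Nlrp3 have higher points at 60 and 120 min than at 0 min in every line, Il1rn lies lower in line 264 than in line 3205 and RAW264.7 at every time, and the points of Casp1 in line 3205 all lie above those of the other lines.

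Il1a, the IL-1α gene, and Il1b had few reads before LPS in every line and were the genes of the 7 with the largest log2 changes after it. In line 264, Il1a stood at 1.82 and 1.71 normalized reads at 0 min, 44.5 and 66.5 at 60 min, and 1207 and 430.4 at 120 min. In line 3205 the values were 5.14 and 8.37 at 0 min, 617 and 166 at 60 min, and 3303 and 727 at 120 min. RAW264.7 had 4.36 and 2.32 at 0 min, 669.5 and 784 at 60 min, and 9702 and 5796 at 120 min. In bulk RNA a level per cell and a share of cells that express a gene cannot be told apart. Within each line the 3 times did not overlap, and at 120 min both libraries of line 264 and both of line 3205 lay below both of RAW264.7. Il1a rose at 60 min by 4.33 ± 0.58 in line 264 (limma adjusted p = 0.0048), by 5.40 ± 0.58 in line 3205 (0.0011) and by 7.43 ± 0.58 in RAW264.7 (8.1e-05). At 120 min it had risen by 8.03 ± 0.69, 7.68 ± 0.69 and 10.80 ± 0.69 over 0 min in line 264, line 3205 and RAW264.7, with limma adjusted p of 0.00019, 0.00022 and 2.1e-05.

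The unstimulated level of Il1a rests on few reads, 4 over both libraries of line 264, 13 over those of line 3205 and 6 over those of RAW264.7, so the value of 1 added before taking logs shrinks its fold changes. From summed reads, with 95% intervals that cover counting error only, the level at 60 min was 30.8 times that at 0 min in line 264 (11.8 to 115), 59.3 times in line 3205 (34.6 to 112) and 211 times in RAW264.7 (96.5 to 577). At 120 min the ratios were 488 (190 to 1794), 318 (186 to 598) and 2286 (1050 to 6231) in line 264, line 3205 and RAW264.7. Against RAW264.7, Il1a in line 264 was lower at 60 min, by -3.71 ± 0.58 on the log2 scale (limma adjusted p = 0.002), and at 120 min, by -3.38 ± 0.69 (0.01). The call at 120 min was lost without replicate 1 of RAW264.7 or replicate 2 of line 264 (adjusted p up to 0.095). The increase of line 264 at 60 min was lost without its replicate 2 at that time (0.062). In line 3205 the difference from RAW264.7 was -1.18 ± 0.58 at 60 min (adjusted p = 0.22) and -2.27 ± 0.69 at 120 min (0.058, and 0.01 with replicate number as a block). Replicate 1 of line 3205 was higher than replicate 2 at both times, and without it the adjusted p were 0.047 and 0.013. At 0 min neither edited line passed the test for Il1a.

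Il1b, which encodes the precursor of IL-1β, was higher after LPS in every line, with replicates that stood far apart in the edited lines. Line 264 had 54.6 and 11.97 normalized reads at 0 min, 1479 and 533 at 60 min, and 16696 and 2466 at 120 min. The values of line 3205 were 156 and 14.4 at 0 min, 8891 and 1680.0 at 60 min, and 35885 and 5180.0 at 120 min. RAW264.7 stood at 26.1 and 12.7 at 0 min, 4228 and 3836 at 60 min, and 79992 and 35316 at 120 min. Replicate 1 was above replicate 2 in all 9 groups. Line 264 lay below RAW264.7 at 60 and 120 min, whereas line 3205 overlapped RAW264.7 at every time. By replicate number, the level at 120 min was 306 and 206 times that at 0 min in line 264, 230 and 361 times in line 3205, and 3061 and 2773 times in RAW264.7.

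With that spread in the error, Il1b rose at 60 min in line 3205 (6.30 ± 1.13, limma adjusted p = 0.027) and in RAW264.7 (7.71 ± 1.13, 0.0052), while line 264 had 5.05 ± 1.13 (0.083, and 0.00067 with the block). At 120 min it had risen in all 3 lines, by 7.90 ± 1.32 in line 264 (0.0075), 8.12 ± 1.32 in line 3205 (0.007) and 11.43 ± 1.32 in RAW264.7 (0.00061). Leaving out 1 library ended 4 of these calls: at 60 min in line 3205 (without replicate 2 at 0 min or replicate 1 at 60 min, up to 0.24) and in RAW264.7 (without replicate 2 at either time, up to 0.069), and at 120 min in line 264 (without replicate 2 at 0 min or replicate 1 at 120 min, up to 0.066) and in line 3205 (without replicate 1 at 120 min, 0.063). Against RAW264.7 no difference in Il1b passed limma without the block. Line 264 was at -2.18 ± 1.13 at 60 min (adjusted p = 0.26, and 0.017 with the block) and -3.05 ± 1.32 at 120 min (0.18, and 0.0012 with the block). Line 3205 was at -0.06 ± 1.13 at 60 min (0.98) and -1.96 ± 1.32 at 120 min (0.4, and 0.013 with the block).

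Il18, whose product is matured by caspase-1 like IL-1β, did not pass the test for LPS in any line. Line 264 had 755 and 304 normalized reads at 0 min, 682 and 381 at 60 min, and 680.5 and 311 at 120 min. In line 3205 the libraries held 815 and 442 at 0 min, 723 and 444.5 at 60 min, and 775 and 373 at 120 min. RAW264.7 had 402 and 337 at 0 min, 533 and 325 at 60 min, and 473 and 316 at 120 min. As with Il1b, replicate 1 was the higher in all 9 groups, and no neighbouring groups in the order of the means were apart. The LPS changes of Il18 ran from -0.16 ± 0.54 (line 3205 at 120 min) to 0.18 ± 0.48 (RAW264.7 at 60 min), all with limma adjusted p of at least 0.94. The difference of line 3205 from RAW264.7 at 0 min was 0.71 ± 0.48, with an adjusted p of 0.42 that became 0.024 with the block.

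Il1rn, which encodes the secreted and intracellular forms of the IL-1 receptor antagonist, had the largest differences between line 264 and RAW264.7 of the 7 genes. In line 264 it stood at 130.1 and 144 normalized reads at 0 min, 104 and 181 at 60 min, and 379 and 519.7 at 120 min. Line 3205 had 1647 and 722 at 0 min, 1947 and 994 at 60 min, and 6910.0 and 5217 at 120 min. The libraries of RAW264.7 held 1043 and 716 at 0 min, 2684 and 2825 at 60 min, and 9591 and 10682 at 120 min. All 6 libraries of line 264, those after LPS included, lay below all 12 of the other lines.

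Against RAW264.7, Il1rn in line 264 was lower by -2.65 ± 0.43 at 0 min (limma adjusted p = 0.0025), -4.32 ± 0.43 at 60 min (0.00011) and -4.51 ± 0.35 at 120 min (2.5e-05). The ratio of means was 0.156, 0.0516 and 0.0443 at the 3 times. In line 3205 the differences from RAW264.7 did not pass the test, at 0.34 ± 0.43 (0.71), -0.98 ± 0.43 (0.17) and -0.75 ± 0.35 (0.2). Tested directly, line 3205 was above line 264 by 2.99 ± 0.43, 3.34 ± 0.43 and 3.75 ± 0.35 at 0, 60 and 120 min, with limma adjusted p of 0.0017, 0.00095 and 0.00015. LPS raised Il1rn at 120 min in line 264 by 1.69 ± 0.35 (0.021), in line 3205 by 2.46 ± 0.35 (0.0032) and in RAW264.7 by 3.55 ± 0.35 (0.00023). The increase in line 264 was lost whichever 1 of its 4 libraries was left out (adjusted p 0.059 to 0.13). At 60 min the changes were 0.00 ± 0.43 in line 264, 0.35 ± 0.43 in line 3205 and 1.67 ± 0.43 in RAW264.7, and the one in RAW264.7 had an adjusted p of 0.078 that became 0.025 with the block.

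Nlrp3, the sensor that many danger signals converge on, rose by 60 min in every line. Its values in line 264 were 2663 and 4097 at 0 min, 44313 and 42761 at 60 min, and 44919 and 55597 at 120 min. In line 3205 they were 1685 and 2177 at 0 min, 33656 and 29335 at 60 min, and 24241 and 36335 at 120 min. RAW264.7 had 2452 and 3310.0 at 0 min, 45232 and 55736 at 60 min, and 30024 and 36487 at 120 min. In each line every library with LPS was far above both without it. The increase at 60 min was 3.72 ± 0.23 in line 264, 4.04 ± 0.23 in line 3205 and 4.14 ± 0.23 in RAW264.7 (limma adjusted p = 2.3e-05, 9.3e-06 and 8.8e-06). At 120 min it was 3.92 ± 0.27, 3.95 ± 0.27 and 3.54 ± 0.27 in the same 3 lines (limma adjusted p = 4e-05, 3.6e-05 and 5.9e-05). Leaving out any 1 library ended none of these 6 calls. No difference of an edited line from RAW264.7 passed limma without the block. With it, line 3205 was lower at 0 min (-0.57, adjusted p 0.14 without and 0.032 with the block) and at 60 min (-0.68, 0.076 and 0.014), and line 264 higher at 120 min (0.59, 0.21 and 0.0022).

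**Figure D2:**
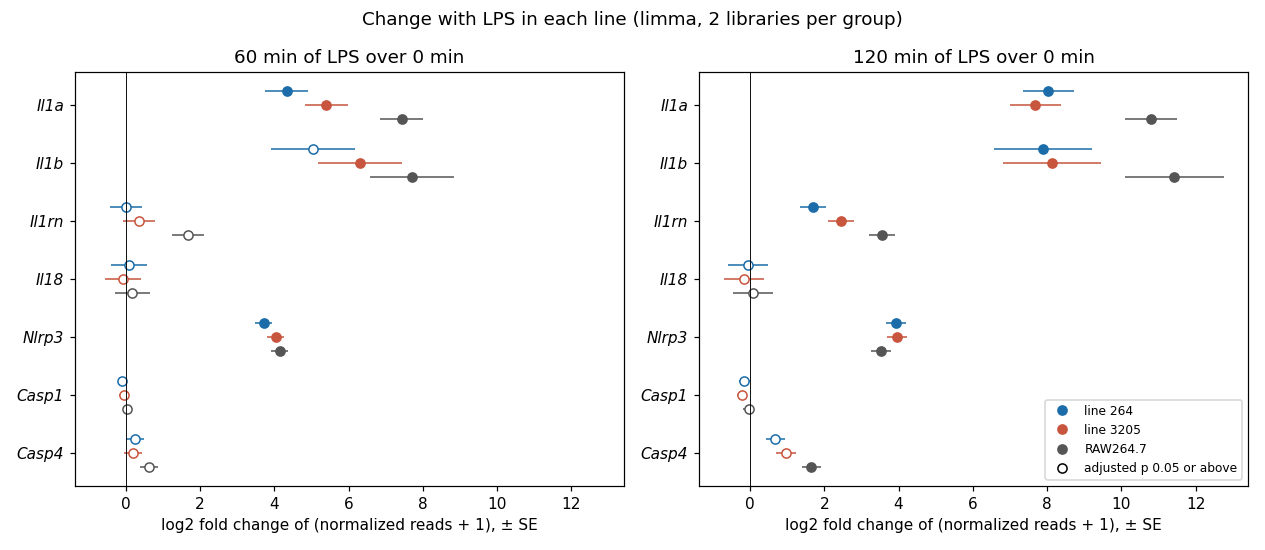
Log2 fold change of (normalized reads + 1) ± SE over 0 min at 60 min (left) and 120 min (right) of LPS in line 264, line 3205 and RAW264.7, with open points at an adjusted p of 0.05 or above. Nlrp3 is at 3.54 to 4.14 in every line, whereas Il1a, Il1b and Il1rn have their largest estimates in RAW264.7 at both times, and Casp1 and Il18 stay near 0.

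Casp1, the protease that cuts pro-IL-1β and pro-IL-18, did not pass the test for LPS in any line but stood higher in line 3205. In line 264 the libraries held 1807 and 1867 normalized reads at 0 min, 1708 and 1740.0 at 60 min, and 1708 and 1599 at 120 min. Line 3205 had 2973 and 3697 at 0 min, 3149 and 3238 at 60 min, and 2672 and 3027 at 120 min. The values in RAW264.7 were 1972 and 1931 at 0 min, 2022 and 1999 at 60 min, and 2054 and 1757 at 120 min. All 6 libraries of line 3205 lay above all 12 of the other lines. Relative to RAW264.7 it was higher in line 3205 by 0.76 ± 0.12 at 0 min (limma adjusted p = 0.0018), 0.67 ± 0.12 at 60 min (0.0038) and 0.58 ± 0.14 at 120 min (0.023). The call at 120 min was lost without replicate 1 or 2 of RAW264.7 or replicate 2 of line 3205 (up to 0.15). Line 3205 was also above line 264, by 0.85 ± 0.12, 0.89 ± 0.12 and 0.78 ± 0.14 at the 3 times (limma adjusted p = 0.0013, 0.0011 and 0.0078), the last lost without replicate 2 of either line (up to 0.061). The LPS changes of Casp1 ran from -0.22 ± 0.14 to 0.04 ± 0.12.

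Casp4, the neighbour of Casp1 and the gene of the intracellular LPS sensor, passed the test for LPS in RAW264.7, at 120 min. Line 264 had 1397 and 817 normalized reads at 0 min, 1514 and 1057 at 60 min, and 2069 and 1412 at 120 min. Line 3205 stood at 856 and 855 at 0 min, 980.1 and 972 at 60 min, and 1659 and 1685 at 120 min. In RAW264.7 there were 591 and 535 at 0 min, 883 and 847.5 at 60 min, and 2002 and 1553 at 120 min. The groups at 0 and 120 min did not overlap in any of the 3 lines. Casp4 rose at 120 min in RAW264.7, by 1.65 ± 0.26 (limma adjusted p = 0.0033). The estimates at 120 min in line 264 and line 3205 were 0.68 ± 0.26 and 0.97 ± 0.26, with adjusted p of 0.19 and 0.068 that became 0.031 and 0.0064 with the block. At 0 min Casp4 was higher in line 264 than in RAW264.7, by 0.92 ± 0.24 (adjusted p = 0.03). That call was lost without either library of RAW264.7 or replicate 1 of line 264 (up to 0.17). With the block it was also higher in line 3205 at 0 min (0.60, adjusted p 0.13 without and 0.032 with the block) and in line 264 at 60 min (0.55, 0.17 and 0.048), while at 120 min the differences were -0.04 ± 0.26 in line 264 and -0.08 ± 0.26 in line 3205.

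**Figure D3:**
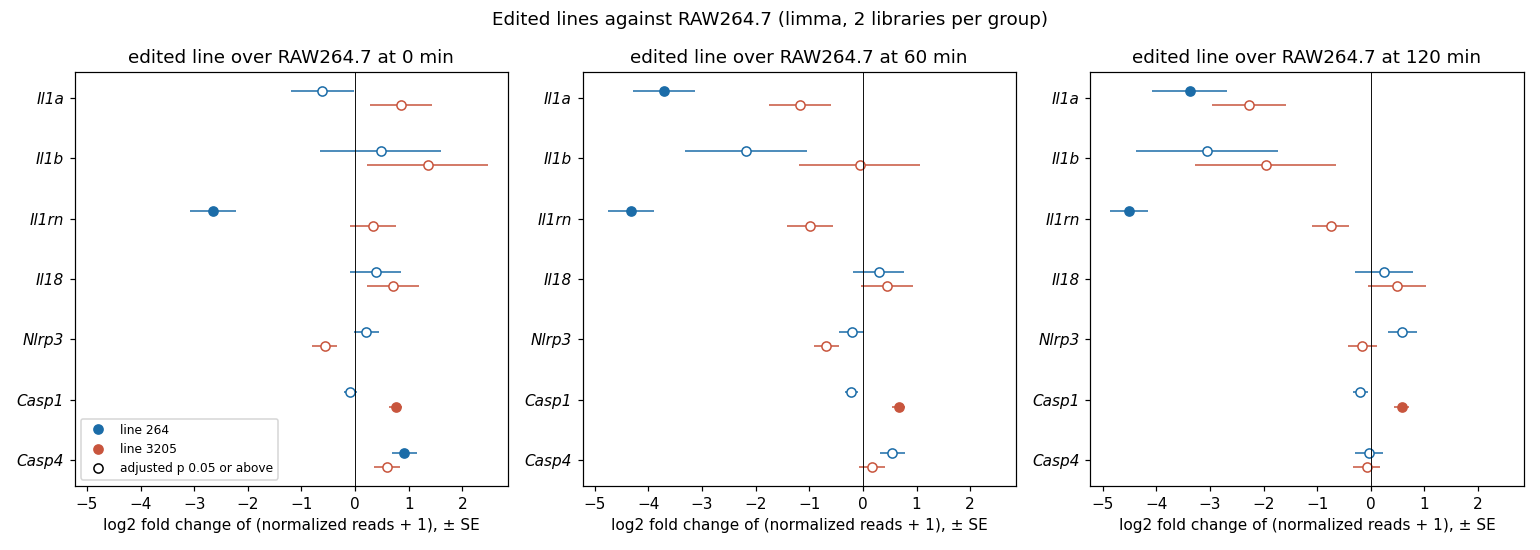
Log2 fold change of (normalized reads + 1) ± SE of line 264 and line 3205 over RAW264.7 at 0, 60 and 120 min of LPS, with open points at an adjusted p of 0.05 or above. Il1rn in line 264 runs from -2.65 to -4.51 and Casp1 in line 3205 from 0.76 to 0.58, the genes called at every time.

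Counted over the 7 genes, those that rose at 60 min were 2 in line 264 (0.821% of the 17301 genes tested rose), 3 in line 3205 (0.948%) and 3 in RAW264.7 (1.66%). At 120 min 4 rose in line 264 (2.88% of the 17450 genes tested), 4 in line 3205 (2.89%) and 5 in RAW264.7 (5.08%). No other of the 7 was called for LPS. The median change over the 7 genes at 120 min in RAW264.7 was 3.54, against 0.00 over all genes tested. Between lines, 2 of 7 differed from RAW264.7 in line 264 at each time, where 13.2%, 15.3% and 13.5% of all genes did at 0, 60 and 120 min. In line 3205 it was 1 of 7 at each time, close to the share of all genes, 14.3%, 15.4% and 13.9%. With the replicate block, the counts in line 264 were 2, 4 and 4, where 23.3%, 26.9% and 25.3% of all genes differed, and those in line 3205 were 4, 2 and 3, where 26.5%, 27.9% and 27.2% did. Between line 3205 and line 264, 2, 3 and 2 of the 7 differed at 0, 60 and 120 min, where 10.4%, 10.2% and 9% of all genes did. The third gene at 60 min was Il1a, higher in line 3205 by 2.53 ± 0.58 (limma adjusted p = 0.021), a call lost without either library of line 264 or replicate 1 of line 3205 (up to 0.17).

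Whether LPS changed the genes by different amounts in an edited line and in RAW264.7 was tested as an interaction. At limma's threshold 0 of 7 differed in each of the 4 tests, where 0.0173% of all genes did for line 264 and 0.00578% for line 3205 at 60 min, and 0.0229% and 0.00573% at 120 min. Il1a had an unadjusted limma p below 0.05 in all 4. Its differences of response were -3.10 ± 0.82 and -2.02 ± 0.82 at 60 min and -2.77 ± 0.98 and -3.12 ± 0.98 at 120 min in line 264 and line 3205. In edgeR the unadjusted p of Il1a were 0.084 and 0.12 at 60 min and 0.39 and 0.15 at 120 min in the same lines. For Il1rn in line 264 the differences were -1.67 ± 0.60 at 60 min and -1.86 ± 0.49 at 120 min (limma adjusted p = 1 and 0.7). Casp4 in line 264 had -0.97 ± 0.36 at 120 min (limma adjusted p = 1). For Nlrp3 the 4 differences ran from -0.42 ± 0.32 to 0.42 ± 0.38. By count, unadjusted limma p were below 0.05 for 2 and 1 of the 7 genes at 60 min and 3 and 1 at 120 min in line 264 and line 3205. The share of all genes with an unadjusted p below 0.05 is not given, here or below, so such counts are not read as a result. edgeR and DESeq2 on the recovered reads also called 0 in each test, with unadjusted p below 0.05 for 1 and 1 (edgeR) and 2 and 1 (DESeq2) at 60 min, and 2 and 1 (edgeR) and 2 and 3 (DESeq2) at 120 min. The genes of the edgeR counts were Il1rn in all 4 tests and Casp4 for line 264 at 120 min. The exception was edgeR with the replicate block, which called Il1b for line 3205 at 120 min, where it called 0.774% of all genes.

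From 60 to 120 min the genes parted. Both tables had been scaled together, so the later time could be set directly against the earlier one over all 18 libraries. Il1rn was higher at 120 than at 60 min in line 264 (1.69 ± 0.39, limma adjusted p = 0.043), in line 3205 (2.11 ± 0.39, 0.013) and in RAW264.7 (1.88 ± 0.39, 0.011). Il1a was higher in line 264 (3.70 ± 0.72, 0.017) and in RAW264.7 (3.37 ± 0.72, 0.012), and had 2.27 ± 0.72 in line 3205 (0.16, and 0.037 with the block). Casp4 was higher in RAW264.7 (1.03 ± 0.25, 0.022), and its change in line 3205, 0.78 ± 0.25, had an adjusted p of 0.16 that became 0.019 with the block, while line 264 had 0.43 ± 0.25 (0.61). Il1b had 2.85 ± 1.28 in line 264 (0.42, and 0.0087 with the block), 1.82 ± 1.28 in line 3205 (0.84, and 0.086 with the block) and 3.72 ± 1.28 in RAW264.7 (0.11, and 0.0007 with the block). Nlrp3 did not climb further: its changes were 0.20 ± 0.25 in line 264, -0.08 ± 0.25 in line 3205 and -0.60 ± 0.25 in RAW264.7, the last with an adjusted p of 0.19 that became 0.021 with the block. That made 2, 1 and 3 of 7 genes called in line 264, line 3205 and RAW264.7, where 2.29%, 2.27% and 7.3% of all genes were. All 6 calls were lost on leaving out at least 1 of their 4 libraries. For Il1rn any 1 of the 4 sufficed in line 264 (up to 0.38) and RAW264.7 (up to 0.073), and in line 3205 replicate 2 at 60 min or replicate 1 at 120 min (up to 0.16). For Il1a and Casp4 in RAW264.7 it was either replicate at 60 min or replicate 1 at 120 min (up to 0.11 and 0.18), and for Il1a in line 264 the same 3 libraries of that line (up to 0.18).

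Other genes of the IL-1 family differed in number of calls between comparisons, as did genes at large. Of 19 listed ligands, receptors and decoys, 13 were in the table and 8 (60 min table) or 11 (120 min table) passed the filter of a mean of 1. At 0 min 5 of 8 were higher and none lower in line 264 than in RAW264.7, with a median of 2.89, and likewise 5 of 8 in line 3205, with a median of 2.0, against medians of 0.00 and -0.00 over all genes. Of all genes tested at 0 min, 7.61% were higher and 5.57% lower in line 264, and 8.42% were higher and 5.89% lower in line 3205. These 5 were Il1r1, Il1rl1, Il18r1, Il18rap and Sigirr in both lines. Il18rap, the accessory chain of the IL-18 receptor, stood at 18709 and 17812 normalized reads in line 264 and 9277 and 8542 in line 3205, against 1017 and 991 in RAW264.7 at 0 min. Il1r1, the signalling receptor for IL-1α and IL-1β, had 575 and 361 in line 264 and 459 and 222 in line 3205, while the libraries of RAW264.7 held 0 and 1.16. At 120 min Il1r1 was above RAW264.7 by 5.81 ± 0.66 in line 264 (limma adjusted p = 0.00032) and 6.35 ± 0.66 in line 3205 (0.00021). The RAW264.7 libraries held 0 and 2.53 then, so in the 120 min table Il1r1 passed the filter through the edited lines, where it was high. Il18r1 also stood near the floor in RAW264.7, at 2.66 and 2.53 at 120 min. The counts of higher genes include both. Also at 120 min, Il18rap was higher by 3.03 ± 0.11 in line 264 (3.2e-07), Sigirr, a dampening receptor of the family, by 3.98 ± 0.27 (1.1e-05), and Il18r1 by 3.16 ± 0.47 (0.0017). Line 3205 was above RAW264.7 in the same 3 genes, by 2.15 ± 0.11, 3.25 ± 0.27 and 2.18 ± 0.47 (limma adjusted p = 2.7e-06, 4.8e-05 and 0.013). In all, 4 of 11 were higher in line 264 at 120 min (6 higher and 2 lower with the block), and in line 3205 5 were higher and 1 lower. The lower gene in line 3205 was Il33. With the block, Il1f9 was among the 6 higher and Il33 among the 2 lower in line 264. Il33 and Il1f9 passed the filter in the 120 min table but not in the 60 min table. Of all genes at 120 min, 7.33% were higher and 6.13% lower in line 264 (13.5% and 11.8% with the block), and 7.94% were higher and 5.99% lower in line 3205 (14.7% and 12.6% with the block).

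With LPS, at 60 min limma called 0 of 8 in each line, with unadjusted p below 0.05 for 0 in line 264, 0 in line 3205 and 1 in RAW264.7, and edgeR and DESeq2 called 0 as well, while limma with the block called 1 in RAW264.7, which fell (4.38% of all genes fell there with the block). At 120 min 1 of 11 rose in line 264 (3 rose and 2 fell with the block), 2 in line 3205 and 4 in RAW264.7 (5 rose and 1 fell with the block). None fell without the block. Il33 and Il1f6 held 0 reads at 0 min in every line and so passed the filter through their values with LPS. Il1f9, another listed gene, passed it in the 120 min table but not in the 60 min table. With the block, the 3 that rose in line 264 were Il33, Il1f6 and Il1f9. Il33 was the call in line 264, Il33 and Il1f6 those in line 3205, and both were among those in RAW264.7. The counts at 120 min therefore include genes that were tested because they were high after LPS. Of all genes at 120 min, 2.88% rose and 2.55% fell in line 264 (7.77% and 8.61% with the block). In line 3205 2.89% rose and 2.14% fell (7.18% and 7.12% with the block), and in RAW264.7 5.08% rose and 5.52% fell (11.3% and 12.4% with the block). Il33, an alarmin, had 48.1 and 18.3 normalized reads in line 264, 47.1 and 4.17 in line 3205 and 170.5 and 149 in RAW264.7 at 120 min, and 0 reads in all 6 libraries at 0 min. Its call in RAW264.7 had a limma adjusted p of 0.00087. Il1rl1, the receptor for IL-33, rose in RAW264.7 by 1.12 ± 0.20 (0.0063), a call lost without replicate 1 at 0 or at 120 min (up to 0.061), and Il18rap by 0.81 ± 0.11 (0.0019). Il1f6, the gene of IL-36α, held 6.66 and 29.0 normalized reads in RAW264.7 at 120 min and 0 at 0 min, and its call there was lost without either library at 0 min or replicate 2 at 120 min (up to 0.14).

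Among 30 other inflammasome genes (28 in the table, 24 or 25 tested), 3 of 25 rose and 3 fell with LPS at 120 min in line 264 (5 and 7 with the block). Of all genes 2.88% rose and 2.55% fell there (7.77% and 8.61% with the block). In line 3205 1 rose and 3 fell (3 and 5 with the block), beside 2.89% and 2.14% of all genes (7.18% and 7.12% with the block). RAW264.7 had 4 that rose and 7 that fell (6 and 10 with the block), beside 5.08% and 5.52% of all genes (11.3% and 12.4% with the block). Mefv, the gene of the pyrin sensor, rose in RAW264.7 by 3.84 ± 0.52 at 120 min (limma adjusted p = 0.0016), with 59.9 and 72.0 normalized reads then and 2.18 and 5.79 at 0 min. Txnip, whose product binds thioredoxin and can bind NLRP3, fell there by 2.73 ± 0.21 (6.4e-05), to 1950.0 and 2029 normalized reads at 120 min, against 15315 and 11368 at 0 min. Nlrp10 fell by 1.92 ± 0.19 (0.00022) and Nlrp1b by 1.09 ± 0.17 (0.0031), though Nlrp1b has close paralogs between which reads may be split. At 120 min 4 of 25 were higher and 4 lower in line 264 than in RAW264.7 (7 and 5 with the block). Of all genes 7.33% were higher and 6.13% lower there (13.5% and 11.8% with the block). In line 3205 10 were higher and 0 lower (12 and 3 with the block), where 7.94% of all genes were higher and 5.99% lower (14.7% and 12.6% with the block). Aim2, a sensor of DNA, was higher in line 264 by 1.60 ± 0.14 (6.6e-05) and Txnip by 2.42 ± 0.21 (6.4e-05). Panx1, a membrane channel gene, was lower there by -1.27 ± 0.15 (0.00044) and Nlrc3 by -2.03 ± 0.29 (0.0012). In line 3205 at 120 min Txnip had 6817 and 6480 normalized reads and Aim2 4536 and 5313, where RAW264.7 had 1950 and 2029, and 3479 and 2974. Nlrc3 was not lower in line 3205, with 874.8 and 955.5 against 648.6 and 657.8 in RAW264.7. Panx1 had 423.2 and 450.7 in line 3205, around 427.5 and 436.8 in RAW264.7. The medians of these genes over RAW264.7 at 120 min were 0.27 in line 264 and 0.48 in line 3205, against 0.01 over all genes in both.

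Of 14 genes of IL-1 receptor signalling, 13 were tested, and at 120 min 3 rose in line 264 (6 rose and 1 fell with the block), 4 rose in line 3205, and in RAW264.7 4 rose and 1 fell (7 and 1 with the block). The shares of all genes that rose were 2.88%, 2.89% and 5.08% in line 264, line 3205 and RAW264.7, and those that fell 2.55%, 2.14% and 5.52%. With the block 7.77%, 7.18% and 11.3% rose and 8.61%, 7.12% and 12.4% fell in the same 3 lines. Peli1, a ubiquitin ligase that acts on IRAK kinases, rose in RAW264.7 by 3.86 ± 0.33 (limma adjusted p = 0.0001) to 13875 and 14804 normalized reads at 120 min, against 948 and 1029 at 0 min. Map3k8, a kinase upstream of ERK, rose by 1.97 ± 0.20 (0.00026) and Irak2, a kinase of the receptor complex, by 1.47 ± 0.29 (0.01, lost without replicate 2 at 0 min or replicate 1 at 120 min, up to 0.096). Tab1 fell by 0.69 ± 0.16 (0.023), a call lost without any 1 of the 4 libraries (up to 0.17). Against RAW264.7 at 120 min limma called 0 of 13 in line 264, with 2 unadjusted p below 0.05, as did edgeR (1) and DESeq2 (2), while limma with the block called 2, and in line 3205 2 were higher and 2 lower (2 and 5 with the block). Of all genes, 13.5% differed by adjusted p in line 264 and 13.9% in line 3205 (25.3% and 27.2% with the block), and no share is given for unadjusted p. The 4 genes without the block were Tab1 (1.04 ± 0.16, 0.0023) and Irak4 (1.02 ± 0.19, 0.0068) on the higher side, and Peli1 (-1.70 ± 0.33, 0.0078) and Irak1 (-0.42 ± 0.11, 0.031) on the lower. Leaving out 1 library ended the call of Irak4 (replicate 1 of line 3205, 0.054), of Peli1 (replicate 2 of either line, up to 0.066) and of Irak1 (any 1 of the 4, up to 0.16).

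The genes whose levels over libraries were most like those of the 7 were ranked by the lower of the Pearson r of log2(value + 1) in the 60 and 120 min tables, over 12 libraries each, among 11756 genes with at least 50 normalized reads in the highest group. The 12 libraries share 3 lines, and 6 of them are in both tables, so r is a description. Il1a was most like Cd83 (r = 0.974 and 0.983 in the 60 and 120 min tables), Pip5k1a and Map4k5. Il1b was most like Socs3 (0.975 and 0.981), Cd83 and Rsad2. For Nlrp3 the closest were Zc3h12a (0.990 and 0.990), Phlda1 and Kdm6b. Il1rn came closest to Ccl9 (0.952 and 0.959), Ireb2 and Gm6377, and Il18 to Ptgr1 (0.944 and 0.959), Pdk3 and Atp7b. Casp1 was most like Gpr160 (0.981 and 0.971), with Cops7a also among its 3 closest, and Casp4 most like Tbrg1 (0.955 and 0.948), Stx6 and Srgn. Cd83 stood on the lists of both IL-1 ligand genes, and none of the 7 was among the 3 genes closest to another.

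In primary macrophages the phosphorylated form of H3.3 (H3S31ph) was far higher over Il1a, Il1b and Nlrp3 at 60 min of LPS than at 0 min. The signal over Il1a was 40.2 at 60 min and 1.79 at 0 min, a ratio of 22.4 that ranked 5 of 193 genes. Over Il1b it was 30.1 and 1.78 (ratio 17, rank 11), and over Nlrp3 17.8 and 1.85 (ratio 9.61, rank 29), while the median ratio of the 193 genes was 3.83. Before LPS the 3 genes held middle ranks in H3S31ph, 90, 92 and 80 of 193. Ranks and medians of the ChIP signal are within these 193 genes, not among all genes. Of them 192 are also in a second deposited set of 195 genes, whose median RNA log2 fold change with LPS was 2.5. How these genes were chosen is not stated in the labels, so the medians describe a set that itself rose with LPS. The table has 1 library per target and time, so no ratio has a replicate check and none was tested.

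H3S28ph, a mark on the same tail that is shared by all H3 forms, had ratios of 2.69, 3.07 and 1.98 over Il1a, Il1b and Nlrp3, around its median of 2.58. H3K36me3, a mark of transcribed gene bodies, had ratios of 2.57, 2.29 and 2.16, against a median of 1.59. H3K36me2 was the mark whose signal was not higher over any of them, with ratios of 0.805, 0.984 and 0.88 against a median of 1. For H3K27ac, a mark of active promoters and enhancers, the ratios were 1.68, 1.89 and 1.46, against a median of 1.16. H3.3 itself had 2.35, 1.6 and 2.39, against 1.96. Divided by the H3.3 ratio of the same gene, H3S31ph had ratios of 9.55, 10.6 and 4.02, whereas H3K27ac was above 1 over Il1b alone. So divided, H3K36me3 had 1.09, 1.43 and 0.902 and H3S28ph 1.14, 1.92 and 0.826 over Il1a, Il1b and Nlrp3. RNA changes of primary macrophages were taken from the authors' other deposited table, which is named for 120 min and holds 195 genes. The log2 fold changes there were 5.38 ± 0.08 for Il1a, 9.91 ± 0.18 for Il1b and 3.97 ± 0.11 for Nlrp3 (the authors' SE). These ranked 16, 3 and 40 of the 195 genes, whose median was 2.5. All 3 stood above that median, and the column labels do not state the time of LPS behind these RNA values.

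**Figure D4:**
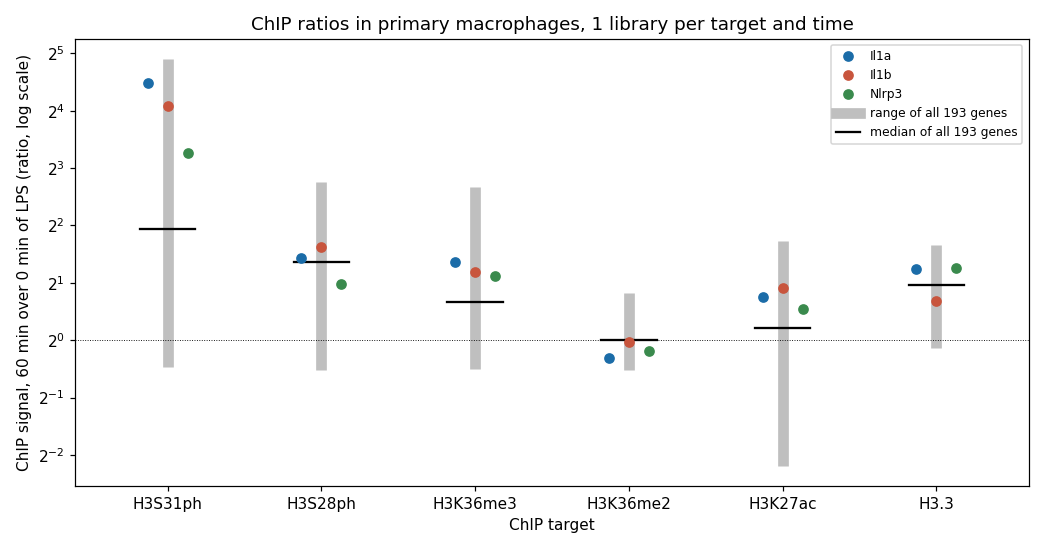
Ratio of ChIP signal at 60 min over 0 min of LPS (log scale) for 6 targets in primary macrophages, 1 library each, with points for Il1a, Il1b and Nlrp3, grey bars for the range and black lines for the median of all 193 genes. The 3 genes stand at 9.61 to 22.4 for H3S31ph, above the median of 3.83, and at 0.805 to 0.984 for H3K36me2.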

How the data were processed

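Per the submitters' processing notes, reads were trimmed with Trim Galore 0.5.0 and aligned to mm10 with STAR 2.4.2, and genes were counted with featureCounts of Subread 1.4.6, with DESeq2 under R 3.4.0 also named. The ChIP samples' notes list SAMtools 1.5, deepTools 2.5.4, Picard 2.14.0 and Bowtie2 2.3.4.1. The deposited RNA signal is a read count divided by 1 size factor per library: rescaled, 100% of values were whole within 0.1 read (largest distance 0.0692). How the authors scaled the deposited ChIP signal is not stated in the labels. The authors' deposited table also gives log2 fold changes with standard errors and p-values for primary macrophages.

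Members were matched by symbol, and the members and lists were chosen with earlier results of these data known. limma 3.58.1 (R 4.3.3, trend) was fitted to log2(value + 1) over the 12 libraries of each table for genes with a mean of at least 1, with Benjamini-Hochberg adjustment over all genes and calls below 0.05. Of 22 comparisons 6, line 3205 against line 264 and 120 against 60 min, were added after the data were seen. The tables had been expected to be scaled apart, but the 6 libraries at 0 min were identical in both to within 5e-07, so they were scaled together. Named list genes were up to 4 per list by smallest p in RAW264.7 at 120 min and up to 4 for the edited lines against RAW264.7 at 120 min. Il1r1 at 0 min, Il33 in the edited lines and the 5 genes higher at 0 min were named after their values were seen.

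Replicate numbers come from the labels. Replicate 1 minus 2 correlated between all 36 pairs of groups (r 0.16 to 0.61, median 0.30), so the numbers pair the samples and a replicate block was fitted beside each result. Alternatives were pseudocounts of 0.5 and 5, no filter, TMM, edgeR 4.0.16 and DESeq2 1.42.0 on the recovered reads, each library left out, and, added later, all 18 libraries in 1 fit and the other table for 0 min. Scripts were tested on simulated data. Tables and plots were made with pandas 2.3.3, matplotlib 3.10.9, scipy 1.17.1 and numpy 2.4.6 under Python 3.11.15. Of the 74 samples, those without values in these tables were not analysed here. One gene among those closest to Casp1 is not reported here.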

Additional observations from a re-analysis of the deposited data

How the results depend on the processing

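No value changed direction with a call under any alternative. Of 154 values of the 7 genes over 22 comparisons, 43 passed the threshold, and 65 did with the replicate block, which ended no call. Counts of genes past the threshold moved by over 1.5 times as follows. With the block they became 4 for line 3205 against RAW264.7 at 0 min, 4 for line 264 and 2 for line 3205 at 60 min, 4 and 3 at 120 min, and 5 in RAW264.7 and 3 in line 3205 for 120 against 60 min. edgeR with the block gave the same counts for these comparisons except 4 for line 3205 at 120 against 60 min. It also gave 5 for line 3205 against line 264 at 120 min and 1 for the response of line 3205 minus that of RAW264.7 at 120 min. All 18 libraries in 1 fit with the block gave 5 for RAW264.7 at 60 min of LPS, 4 and 2 for line 264 and line 3205 against RAW264.7 at 60 min, 4 and 3 at 120 min, and 4 for line 3205 at 0 min, and without the block 2 for line 3205 at 120 min. DESeq2 gave 2 for line 3205 against RAW264.7 at 60 min and 2 for line 3205 at 120 against 60 min. For line 264 at 120 against 60 min, no filter and edgeR each gave 1, where Il1rn was lost. Divided by the H3.3 ratio, H3K27ac was above 1 over 1 gene. The cause of these shifts was not tested. TMM scaling and both pseudocounts changed no call.

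Leaving out 1 library gave 1 to 2 genes (line 264), 2 to 3 (line 3205) and 2 to 3 (RAW264.7) at 60 min of LPS, and 2 to 3, 3 to 4 and 5 at 120 min. Against RAW264.7 at 0, 60 and 120 min it gave 1 to 2, 2 and 1 to 2 for line 264, and 1, 1 to 2 and 0 to 2 for line 3205. For 120 against 60 min it gave 0 to 1 (line 264), 0 to 2 (line 3205) and 0 to 2 (RAW264.7), for line 3205 against line 264 2 to 3, 2 to 3 and 1 to 2, and 0 for each difference of responses. A lone library was assumed to vary like the other groups. With 2 libraries per group and 4 to 13 reads of Il1a at 0 min, depth limits the unstimulated level of Il1a.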
